A study of Mus musculus with 16 samples.

Results

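The cytochrome P450 genes of mouse liver are described here in 16 SuperSAGE libraries, each from the liver of a separate male C57BL/6J mouse. A gene was included when its symbol began with Cyp and a digit, except Cyp7a1, Cyp8b1 and Cyp27a1, and counts of several rows with the same symbol were added. This gave 92 symbols out of 20827 in the table. Of these, 56 had at least 1 tag, 17 reached 100 tags over the 16 libraries and are described singly, and 39 had fewer and are given by subfamily. SuperSAGE counts short sequence tags cut from a fixed kind of site near the end of each transcript. The labels give an age of 4 weeks and feeding for 18 weeks, so 4 weeks cannot be the age when the livers were taken. The mice formed 4 groups of 4. The HFW mice ate a high-fat diet with 1% the krill product WEPAK, the water-soluble part of Pacific krill. The HF mice ate a high-fat diet (45% fat) without it, the NW mice a normal diet with 1% WEPAK, and the N mice a normal diet (10% fat) without it. The labels name no transgene, no second tissue and no preparation batch.

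Cytochrome P450 enzymes are haem proteins that insert an oxygen atom into their substrates. In the endoplasmic reticulum they take electrons from P450 oxidoreductase. Hepatocytes use families of the Cyp1, Cyp2 and Cyp3 type mainly to oxidise drugs, steroids and arachidonic acid, and family Cyp4 to hydroxylate the end of fatty acid chains. Other families make and break down sterols, steroid hormones, bile acids and retinoic acid. Nuclear receptors that sense foreign compounds, fatty acids or bile acids control many of these genes, and many are expressed more strongly near the central vein of the liver lobule.

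Many of these genes are recent copies of each other, so the sequence of a tag decides which members it can separate. A tag of 26 bases was predicted for each member from the last CATG, the site that NlaIII cuts, in the GENCODE M21 transcript (build GRCm38) of its RefSeq identifier. These are predictions from the transcript sequence, and the tags that the libraries were counted from were not part of the table. In the tags below, capitals mark the NlaIII site. The first 3 are from Cyp2d genes on chromosome 15, the next 4 from Cyp2c genes on chromosome 19, then come 2 Cyp3a genes on chromosome 5, Cyp21a1 and Cyp4f15 on chromosome 17 and Cyp2e1 on chromosome 7.
Cyp2d26 and Cyp2d40: CATGgagctcttcctcttcttcacct
Cyp2d22: CATGatatagttgttggtaaaagctc
Cyp2d10: CATGcaaaataaaccaatcttgtggc
Cyp2c29: CATGgagctgtttctaatcctgacaa
Cyp2c37 and Cyp2c54: CATGgagctgttcctgttcctaacca
Cyp2c39, Cyp2c40 and Cyp2c68: CATGgagctgtttctattcctgacca
Cyp2c44: CATGctgtggtccaggacacaaaatt
Cyp3a59: CATGctcagtggctctgcagtgtatc
Cyp3a25: CATGctcagtgactatgcagtgtatc
Cyp21a1: CATGatccctgagctggtgccttctg
Cyp4f15: CATGtgcatcaaggagagtctgcggc
Cyp2e1: CATGgtggctcacaaccatctgtatc

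Cyp2d26 and Cyp2d40 had the same predicted tag, in their coding sequence, and the table gives them 4419 and 230 tags. It was also the last tag of another Cyp2d22 transcript and of 3 Cyp2d pseudogenes. Values of these genes are therefore uncertain, since the sources used here do not say how a tag found in several transcripts was counted. The tag of Cyp2d10, in its 3′ untranslated region, and that of Cyp21a1 were found in no other gene. The Cyp2c29 tag was also unique but differed at only 2 bases from the tag that Cyp2c39, Cyp2c40 and Cyp2c68 share. The Cyp3a59 and Cyp3a25 tags likewise differed at 2 bases. The Cyp4f15 tag was also the last tag of Cyp4f40 and occurs inside transcripts of Cyp4f13, Cyp4f16, Cyp4f17 and Cyp4f37, and the Cyp2e1 tag also occurs in Fcho2. In Cyp4a14 and Cyp4a10 the last CATG lay 6 and 8 bases from the transcript's end, so no full tag could be predicted. Of the 17 single genes 15 had a full tag, and for 11 no other gene ended in it. Among 53 members compared, 22 pairs of tags were within 4 mismatches and 5 pairs were identical.

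Libraries held 56655 to 149349 tags in named genes, with a mean of 75749 ± 21588 in HFW, 118882 ± 23746 in HF, 74198 ± 30660 in NW and 75963 ± 16768 in N (SD, n = 4 each). The HF libraries were on average the deepest. Hepatocyte markers were present in every library, and their summed level was 39575 to 70717 CPM in HFW, 43844 to 53828 CPM in HF, 66864 to 82444 CPM in NW and 46180 to 73220.4 CPM in N. CPM is the tag count scaled to the normalized library size, on the usual CPM scale. A principal component analysis used only the tested genes that varied most between libraries, and its first component held 44.5% of their variance. On it N mouse 4 scored -16.5 and N mouse 8 scored 4.90, and results below are given without these mice where that changes a call. In a whole liver, fewer cells of a type and less RNA per cell cannot be told apart.

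The P450 genes held 21221 tags. They made up 1.30% ± 0.383 of the tags in HFW mice, 1.41% ± 0.510 in HF mice, 1.90% ± 0.425 in NW mice and 1.62% ± 0.406 in N mice (SD, n = 4 each), and these ranges overlapped. Single libraries ran from 0.767% to 2.35%. Cyp2e1, Cyp2d26 and Cyp2c44 together held 66.5% of the P450 tags, and the 17 single genes held 95.3%. By subfamily, Cyp2d held 30.4%, Cyp2e 25.9%, Cyp2c 24.8%, Cyp4a 8.44%, Cyp4f 4.09% and Cyp3a 1.85%. With subfamilies placed in classes by known role, the class for oxidation of foreign compounds and steroids held 85.2% of the tags. This class includes the Cyp2c and Cyp2j genes, some of which act on arachidonic acid. Fatty acid hydroxylases held 12.7%, genes of sterol, bile acid and steroid synthesis 1.13%, and genes of vitamin A and D breakdown or activation 0.320%. One tag position stands for a transcript, so these levels carry no correction for length.

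**Figure D1:**
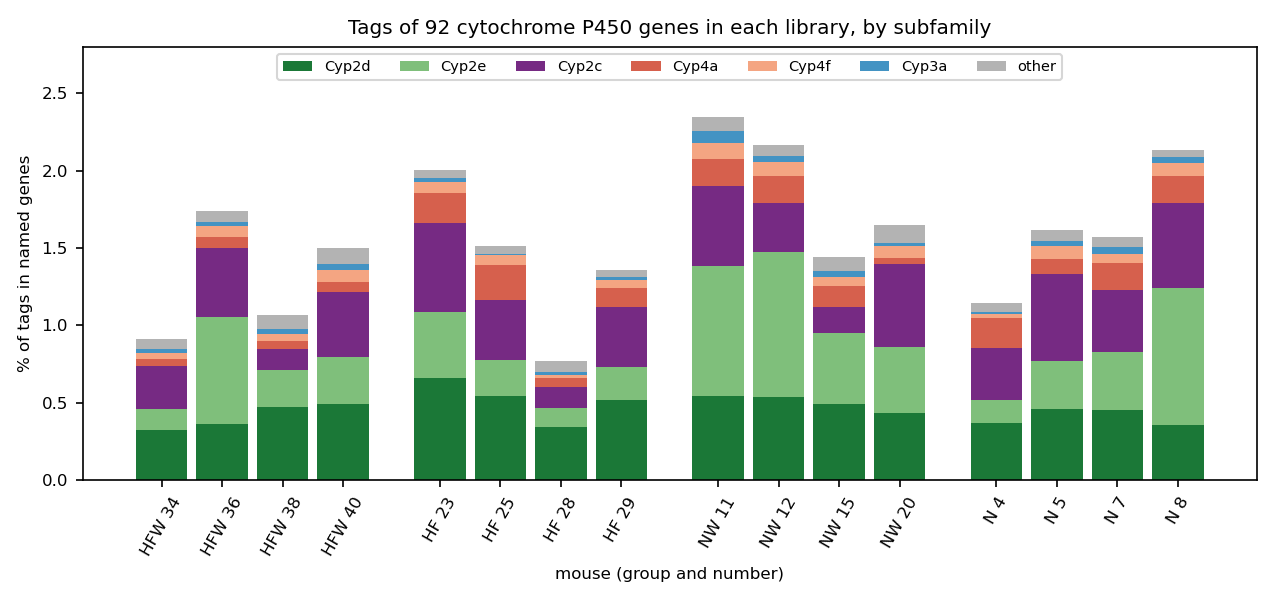
Percent of the tags in named genes that fell in P450 genes, stacked by subfamily, for each mouse (horizontal axis, group and mouse number; vertical axis, percent). Totals ran from 0.767% to 2.35%, and the Cyp2e segment is wide in HFW mouse 36 and N mouse 8.

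The cut-off at 100 tags fell between Cyp4a12b with 107 tags and Cyp2c50 with 98. Cyp4a12b had 58.0, 69.9, 37.3 and 132 CPM in HFW mice, 63.2, 18.8, 16.4 and 50.9 in HF mice, 34.1, 102, 93.6 and 191 in NW mice and 179, 114, 79.4 and 83.1 in N mice. This fatty acid hydroxylase was the single gene that did not pass the filter on low counts, so 16 of the 92 members were tested. No tag was counted for 36 members, which with 1379164 tags in all allows a level of up to 2.18 CPM over all libraries and of up to 20.1 to 53.0 CPM in 1 library. These limits cover counting error only, since PCR copies were not marked.

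The first question was what WEPAK changed, taken as the mean of its effects on both diets. Of the 16 tested P450 genes 7 passed (43.75%), against 31.3% of all 1046 genes tested. Cyp21a1, Cyp2d10, Cyp2d40, Cyp2d22, Cyp4f15 and Cyp3a59 were higher with WEPAK, 6 genes against a share of 15.2% over all genes. Cyp2c29 was lower, 1 gene against 16.1%. The median log2 fold change was 0.40 for the P450 genes and 0.03 for all genes. It was 0.37 for the 5 tested hepatocyte markers, all 5 of them positive and 1 past the threshold, and the part of hepatocyte content in the P450 values was not tested. Calls are at an adjusted p under 0.05 in edgeR's quasi-likelihood test, a two-sided test, with Benjamini-Hochberg adjustment over all genes tested. Mice of a group are given below in the order of their numbers, 34, 36, 38 and 40 in HFW, 23, 25, 28 and 29 in HF, 11, 12, 15 and 20 in NW and 4, 5, 7 and 8 in N.

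**Figure D2:**
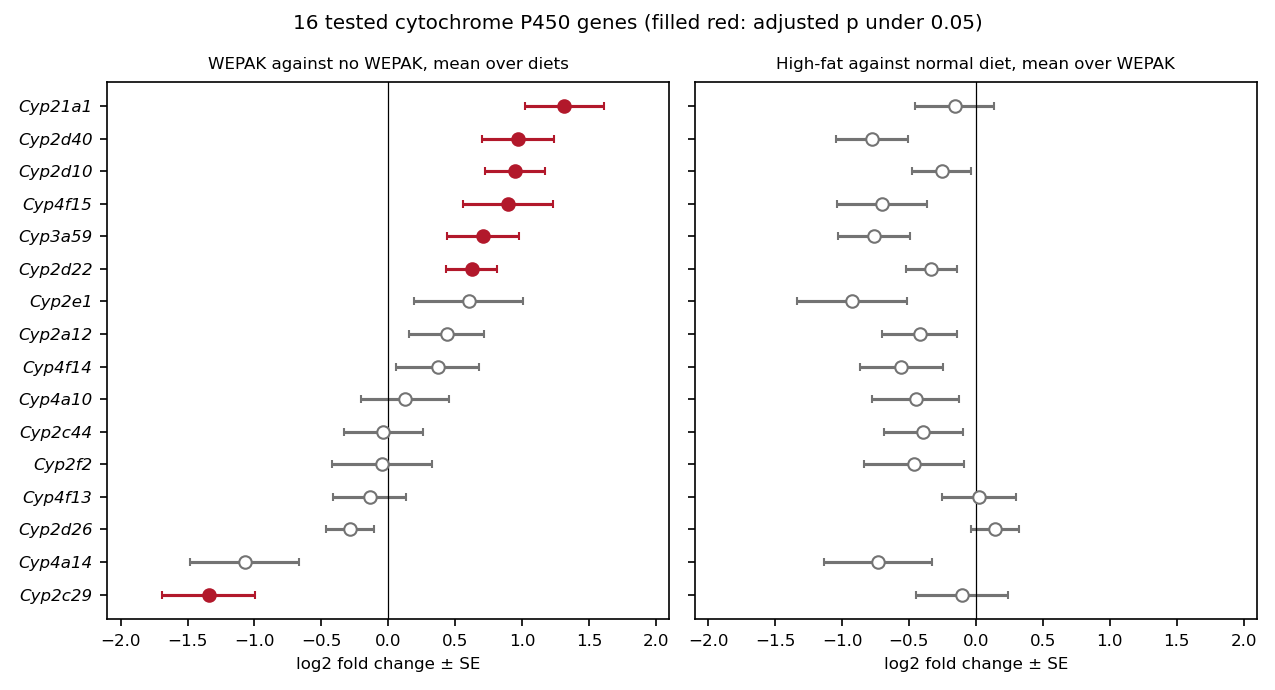
Log2 fold change (horizontal axis, points, with bars of 1 standard error) of the 16 tested P450 genes (vertical axis) for WEPAK against no WEPAK (left) and high-fat against normal diet (right), each a mean over both levels of the other factor. Filled red points passed the test: 7 in the left panel and 0 in the right, where 14 of 16 points lie below 0.

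The Cyp2d genes lie in a cluster and oxidise drugs and other amines, as their human counterpart CYP2D6 does. Cyp2d10 had 359.7, 384, 596 and 564 CPM in HFW mice, against 295, 194, 278 and 212 CPM in HF mice. In NW mice it had 597, 425, 730.3 and 521 CPM, against 298, 124, 371 and 415 CPM in N mice. The WEPAK-fed mice did not overlap with the others on either diet. Cyp2d10 rose by 0.95 on the log2 scale over both diets (SE 0.22, edgeR adjusted p = 0.00205), with 8 of 8 WEPAK-fed mice above the mean of their diet's controls. On the high-fat diet alone it also passed, at 0.97 (SE 0.31, edgeR adjusted p = 0.0422), and on the normal diet alone the value was 0.93 (SE 0.32, edgeR adjusted p = 0.0527). The high-fat call was lost when any 1 of 9 mice was left out (N 7, NW 11, 12 or 20, HF 23, 25 or 29, HFW 38 or 40), with log2 fold changes of 0.83 to 1.05 and adjusted p of 0.0528 to 0.154, and with DESeq2 size factors (0.93, edgeR adjusted p = 0.0522). By the DESeq2 Wald test the high-fat call was lost too (0.93, adjusted p = 0.0513). On the normal diet the gene passed without N mouse 7 or 8, NW mouse 12, HF mouse 28 or HFW mouse 34, 36 or 40, at 0.99 to 1.19 (adjusted p of 0.0173 to 0.0459). It also passed there by limma-voom (1.04, adjusted p = 0.0414) and at a minimum count of 20 (1.00, edgeR adjusted p = 0.0331). After thinning to equal depth the normal-diet value was 1.09, edgeR adjusted p = 0.0188.

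Cyp2d22 had 673, 647, 1025 and 977 CPM in HFW mice, against 926, 595, 491 and 805 CPM in HF mice. It had 1399, 1393, 1535 and 1112 CPM in NW mice, against 417, 706, 794 and 797 CPM in N mice. The NW mice stood above every mouse of the other 3 groups, whereas HFW and HF overlapped. Over both diets Cyp2d22 rose by 0.62 (SE 0.19, edgeR adjusted p = 0.0137; 6 of 8 mice), and without N mice 4 and 8 the value was 0.52, edgeR adjusted p = 0.0632. On the normal diet it rose by 1.00 (SE 0.27, edgeR adjusted p = 0.0149). That call was lost without N mouse 4 (0.82, edgeR adjusted p = 0.0788), without NW mouse 15 (0.95, edgeR adjusted p = 0.0544) and without N mice 4 and 8 together (0.83, edgeR adjusted p = 0.137). On the high-fat diet the change was 0.24 (SE 0.27, edgeR adjusted p = 0.594). The difference between the diets' WEPAK effects, -0.76 (SE 0.38), had an unadjusted p of 0.0549 and an edgeR adjusted p of 0.998.

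Cyp2d40 was a low member of the cluster, with 69.6, 175, 186 and 263 CPM in HFW mice, against 84.2, 75.1, 81.9 and 119 CPM in HF mice. NW mice had 205, 263, 337 and 417 CPM and N mice 89.3, 172, 106 and 249 CPM. It rose by 0.97 over both diets (SE 0.27, edgeR adjusted p = 0.00749; 7 of 8 mice), and HFW mouse 34 was the exception. Neither diet alone passed, with 0.96 (SE 0.39, edgeR adjusted p = 0.109) for HFW against HF and 0.98 (SE 0.37, edgeR adjusted p = 0.0770) for NW against N. Without HFW mouse 34 both passed, at 1.24, edgeR adjusted p = 0.0331 for HFW against HF and at 1.03, edgeR adjusted p = 0.0473 for NW against N. The second also passed without N mouse 8 (1.32, edgeR adjusted p = 0.0223) and after thinning to equal depth (1.16, edgeR adjusted p = 0.0460). Without HFW mouse 40 the value for HFW against HF was 0.57, edgeR adjusted p = 0.443.

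Cyp2d26, the most abundant of the cluster, had 2007, 2464, 3093 and 2762 CPM in HFW mice, against 5001, 4143, 2432 and 3891 CPM in HF mice. NW mice had 3105, 3356, 2621 and 2364 CPM and N mice 2737, 3318, 3044 and 2276 CPM. Its WEPAK effect did not pass, at -0.29 (SE 0.18, edgeR adjusted p = 0.227), nor did HFW against HF at -0.58 (SE 0.25, edgeR adjusted p = 0.125), which passed without HF mouse 28 (-0.77, edgeR adjusted p = 0.0377). Because Cyp2d26 and Cyp2d40 share the tag printed above, their counts were also set against each other. Per 100 Cyp2d26 tags there were 3.47, 7.09, 6.02 and 9.52 Cyp2d40 tags in HFW mice, against 1.68, 1.81, 3.37 and 3.05 in HF mice. NW mice had 6.59, 7.85, 12.9 and 17.6, against 3.26, 5.17, 3.48 and 10.9 in N mice. Every HFW mouse had a higher ratio than every HF mouse, and NW and N mice overlapped. The gap was small, with 6 against 173 tags in HFW mouse 34 and 10 against 297 tags in HF mouse 28. These ratios rest on few Cyp2d40 tags, and no share over all genes was computed for them.

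**Figure D3:**
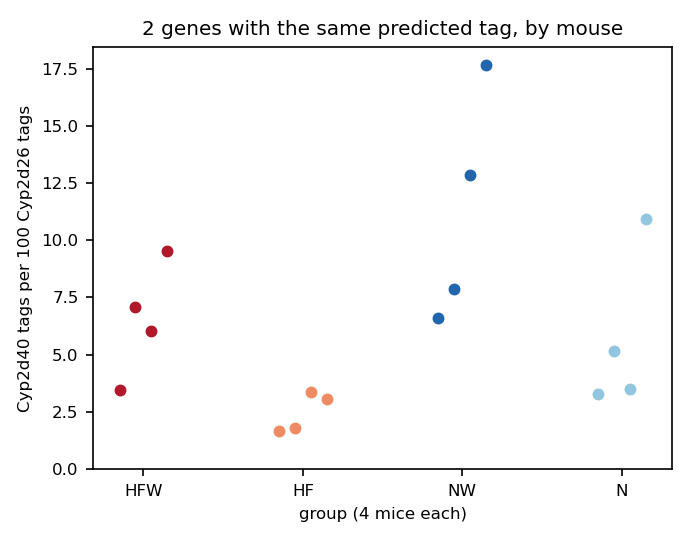
Cyp2d40 tags per 100 Cyp2d26 tags (vertical axis) in each mouse (points) of the 4 groups (horizontal axis). HF mice lie between 1.68 and 3.37, just below the lowest HFW mouse at 3.47. HFW mice reach 9.52 and NW mice reach 17.6.

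Among the Cyp2c genes, Cyp2c29 turns arachidonic acid into epoxides and is a target of the receptor CAR. It had 162, 454, 74.5 and 338 CPM in HFW mice, against 926, 1026, 172 and 771 CPM in HF mice. In NW mice it had 392, 416, 225 and 156 CPM, against 714, 896, 410.3 and 814 CPM in N mice. HF mouse 28 was low and overlapped with the HFW mice, and NW mouse 12 lay just above N mouse 7. Over both diets Cyp2c29 fell by 1.34 (SE 0.35, edgeR adjusted p = 0.00680), with 8 of 8 WEPAK-fed mice below the mean of their controls. Without N mice 4 and 8 the value was -1.33, edgeR adjusted p = 0.0519. Single diets did not pass, with -1.48 (SE 0.49, edgeR adjusted p = 0.0575) for HFW against HF and -1.21 (SE 0.49, edgeR adjusted p = 0.112) for NW against N. HFW against HF passed without HF mouse 28 (-1.81, edgeR adjusted p = 0.00290) and without HFW mouse 36 (-1.82, edgeR adjusted p = 0.0476), and NW against N without HF mouse 28 (-1.15, edgeR adjusted p = 0.0393). By the DESeq2 Wald test HFW against HF passed too (-1.53, adjusted p = 0.0197), as it did with a non-robust fit (-1.48, edgeR adjusted p = 0.0326). After thinning to equal depth it had -1.63, edgeR adjusted p = 0.0474. With no filter both diets passed, at -1.70 (edgeR adjusted p = 4.71e-05) for HFW against HF and -1.22 (edgeR adjusted p = 0.0278) for NW against N. In all, HFW against HF passed in 6 of 25 alternatives.

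Cyp2c44, another epoxide-forming enzyme and the third most abundant member, did not pass the test in any comparison. It had 2587, 3879, 1136 and 3344 CPM in HFW mice, against 4337, 2428, 1089 and 2755 CPM in HF mice. NW mice had 4453, 2532, 1423 and 5179.9 CPM and N mice 2499, 4377, 3269 and 4634 CPM, so each pair of groups overlapped widely. Its WEPAK effect was -0.04 (SE 0.29, edgeR adjusted p = 0.938). The 9 other Cyp2c genes with tags, each below 100, held 292 tags together and had 181 ± 115 CPM in HFW, 207 ± 106 in HF, 265 ± 75.0 in NW and 217 ± 153 in N (SD, n = 4 each).

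Cyp3a59 belongs to the Cyp3a subfamily, whose human member CYP3A4 oxidises many drugs. It had 186, 227, 279 and 235 CPM in HFW mice, against 179, 56.3, 98.3 and 178 CPM in HF mice. NW mice had 546, 331, 262 and 243 CPM, against 89.3, 191, 318 and 365 CPM in N mice. All HFW mice lay above all HF mice, while NW and N overlapped. Over both diets Cyp3a59 rose by 0.71 (SE 0.27, edgeR adjusted p = 0.0432; 8 of 8 mice). The call was lost when 1 of 7 mice was left out (N 4 or 5, NW 11, HF 25 or 28, HFW 38 or 40), with values of 0.56 to 0.72 and adjusted p of 0.0564 to 0.125. It was also lost without N mice 4 and 8 together (0.64, edgeR adjusted p = 0.0903), after thinning to equal depth (0.57, edgeR adjusted p = 0.123) and by the Wald test of DESeq2 (0.70, adjusted p = 0.0540). The single diets gave 0.88 (SE 0.39, edgeR adjusted p = 0.135) in HFW against HF and 0.54 (SE 0.37, edgeR adjusted p = 0.365) in NW against N, neither past the threshold.

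Cyp21a1 encodes the steroid hydroxylase, known from the adrenal cortex, where it is needed for cortisol-like hormones and aldosterone. It had 162, 245, 261 and 122 CPM in HFW mice, against 52.6, 37.5, 123 and 59.3 CPM in HF mice. It had 136, 127, 243 and 278 CPM in NW mice, against 74.4, 95.4, 52.9 and 116 CPM in N mice. These levels rest on 4 to 16 tags a library. NW and N mice did not overlap, and HFW and HF mice overlapped at HFW mouse 40 and HF mouse 28. Cyp21a1 rose by 1.31 over both diets (SE 0.30, edgeR adjusted p = 0.00135; 8 of 8 mice), the highest fold change of the 16 genes. On the high-fat diet it rose by 1.47 (SE 0.41, edgeR adjusted p = 0.0181). That call was lost without HF mouse 23 or 25 or HFW mouse 36 or 38, at 1.24 to 1.38 (adjusted p of 0.0563 to 0.102), and after thinning to equal depth (1.22, edgeR adjusted p = 0.0916). On the normal diet the value was 1.16 (SE 0.43, edgeR adjusted p = 0.0697), and it passed without N mouse 8 (1.38, edgeR adjusted p = 0.0394) and without HF mouse 28 (1.21, edgeR adjusted p = 0.0452). After thinning the normal-diet value passed as well (1.45, edgeR adjusted p = 0.0431).

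**Figure D4:**
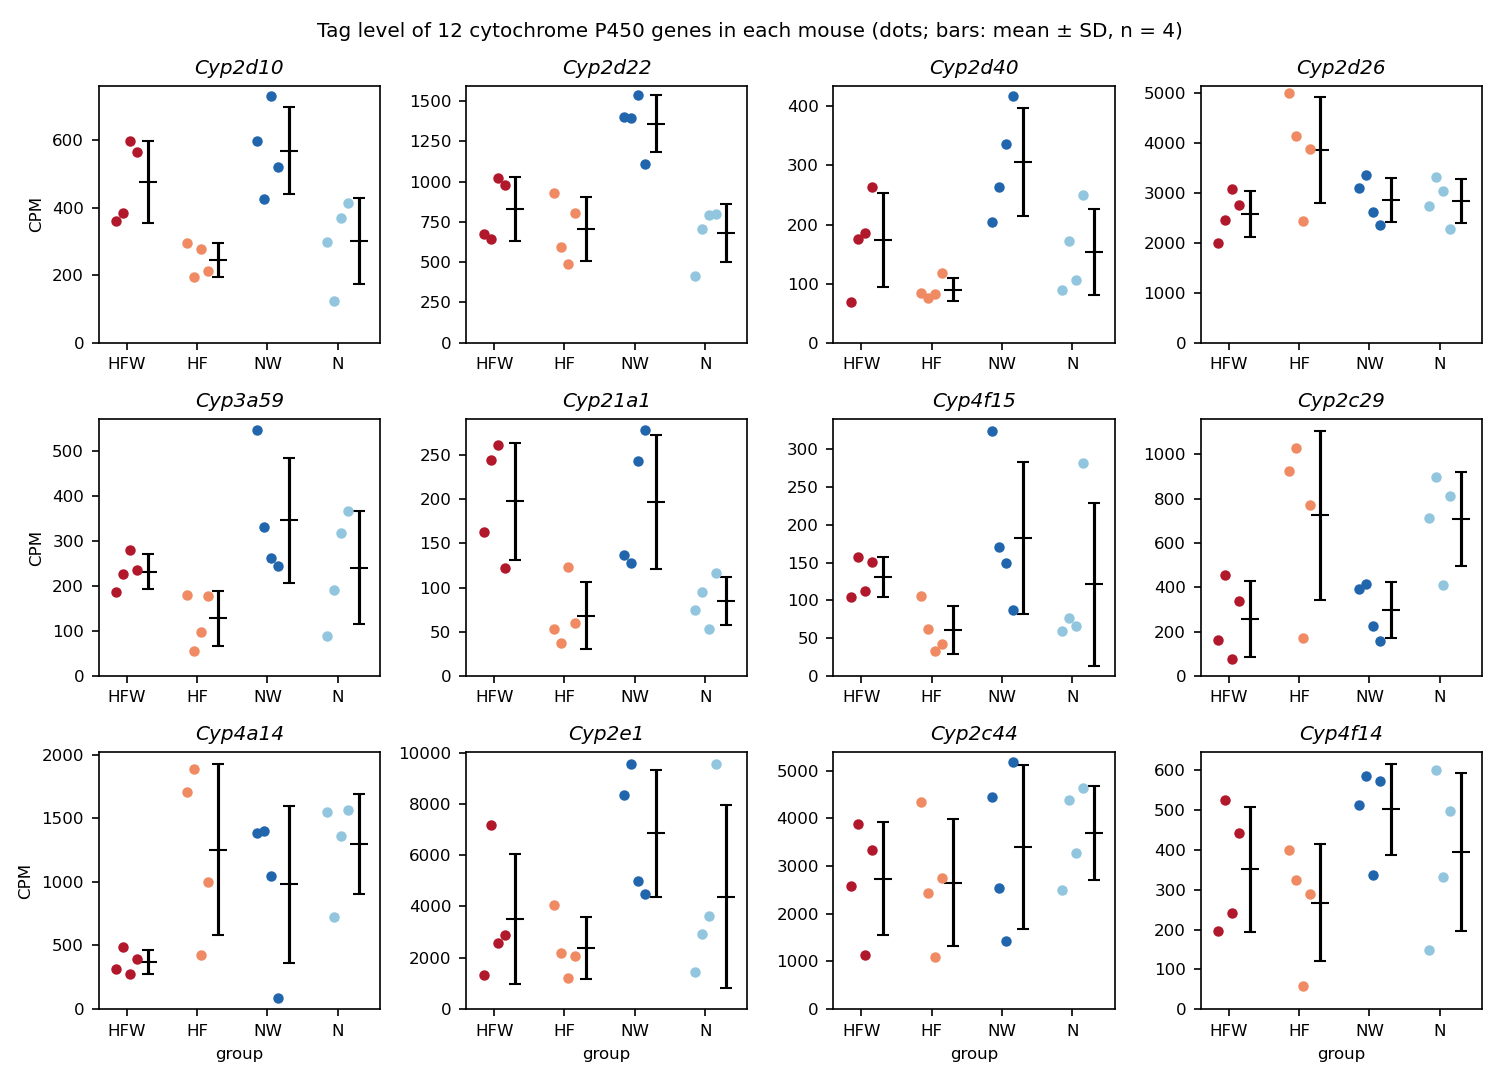
Tag level (vertical axes, CPM, each panel on its own scale from 0) of 12 P450 genes in each mouse (dots, by group on the horizontal axes), with mean ± SD of 4 mice (bars). Cyp2d10 dots of WEPAK-fed mice lie above those of their controls on both diets, and HFW dots of Cyp4a14 lie close together at 279 to 489 CPM.

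Cyp4a enzymes hydroxylate the end of fatty acid chains, and Cyp4a14 and Cyp4a10 are standard target genes of the fatty acid receptor PPARα in mice. Cyp4a14 had 313, 489, 279 and 395 CPM in HFW mice, against 1705, 1884, 426 and 1000.3 CPM in HF mice. NW mice had 1382, 1402, 1049 and 86.9 CPM, against 1547, 725, 1363 and 1561 CPM in N mice. HF mouse 28 lay within the HFW range, and NW mouse 20 was far below the other NW mice. Cyp4a14 had -1.76 (SE 0.59, edgeR adjusted p = 0.0718) in HFW against HF and -1.07 (SE 0.41, edgeR adjusted p = 0.0580) over both diets, neither past the threshold. Both passed without NW mouse 20 (-1.78, edgeR adjusted p = 0.00244 in HFW against HF, -0.86, edgeR adjusted p = 0.0139 over both diets) and without HF mouse 28 (-2.07, edgeR adjusted p = 0.0193 and -1.19, edgeR adjusted p = 0.0165). All groups share an estimate of the spread, so leaving out a mouse of another group, such as NW mouse 20, can change a call. With the DESeq2 Wald test both passed too, at -1.81, adjusted p = 0.0428 and -1.10, adjusted p = 0.0449. In all, HFW against HF passed in 6 of 25 alternatives and the mean over both diets in 5 of 25. On the normal diet the value was -0.38 (SE 0.56, edgeR adjusted p = 0.707), and the difference between the diets' effects was -1.38 (SE 0.81, edgeR adjusted p = 0.998). Cyp4a10 averaged 107 ± 48.8 CPM in HFW, 120.3 ± 17.0 in HF, 180.3 ± 89.2 in NW and 130.1 ± 80.3 in N (SD, n = 4 each), with a WEPAK effect of 0.13 (SE 0.33, edgeR adjusted p = 0.805).

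The Cyp4f enzymes act on leukotrienes, long fatty acids and vitamin E. Cyp4f15 had 104, 157, 112 and 150.3 CPM in HFW mice, against 105, 62.6, 32.8 and 42.4 CPM in HF mice. NW mice had 324, 169.9, 149.8 and 86.9 CPM, against 59.5, 76.3, 66.2 and 282 CPM in N mice. N mouse 8 stood above the other N mice, and HF mouse 23 just reached the HFW range. Over both diets Cyp4f15 rose by 0.90 (SE 0.34, edgeR adjusted p = 0.0406; 7 of 8 mice). The call held without each of 5 mice and was lost without each of the other 11 (N 4, 5 or 7, NW 11 or 12, HF 25, 28 or 29, HFW 36, 38 or 40), at 0.70 to 0.94 (adjusted p of 0.0501 to 0.130). With the DESeq2 Wald test the value was 0.88, adjusted p = 0.0535. Cyp4f14 averaged 351 ± 157 CPM in HFW, 268 ± 148 in HF, 502 ± 115 in NW and 395 ± 198 in N (SD, n = 4 each), and Cyp4f13 averaged 111 ± 31.6 CPM in HFW, 154 ± 55.4 in HF, 139.8 ± 44.7 in NW and 119 ± 49.7 in N. Their WEPAK effects were 0.37 (edgeR adjusted p = 0.403) for Cyp4f14 and -0.14 (edgeR adjusted p = 0.733) for Cyp4f13.

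Cyp2e1, which oxidises ethanol, acetone and paracetamol in pericentral hepatocytes, was the most abundant member and varied widely within groups. It had 1346, 7164, 2589.7 and 2903 CPM in HFW mice, against 4074, 2178, 1228 and 2059.8 CPM in HF mice. NW mice had 8360.1, 9550.2, 4999.6 and 4502 CPM, against 1443, 2918, 3613 and 9568 CPM in N mice. In HFW, N and HF the highest mouse was more than 3 times the lowest. The WEPAK effect of 0.60 (SE 0.41, edgeR adjusted p = 0.294) did not pass, although 7 of 8 WEPAK-fed mice lay above the mean of their controls. Cyp2a12, a hydroxylase of testosterone and bile acids, averaged 167 ± 28.9 CPM in HFW, 138 ± 65.1 in HF, 255 ± 74.8 in NW and 161 ± 94.5 in N (SD, n = 4 each), with a WEPAK effect of 0.44 (SE 0.28, edgeR adjusted p = 0.244). Cyp2f2, known for oxidising naphthalene, averaged 72.3 ± 48.5 CPM in HFW, 80.0 ± 31.1 in HF, 109 ± 43.7 in NW and 109.9 ± 61.2 in N, with -0.05 (SE 0.37, edgeR adjusted p = 0.938).

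Diet by diet, fewer P450 genes passed. On the high-fat diet 2 of 16 did (12.5%), Cyp21a1 and Cyp2d10, against 9.85% of all genes. On the normal diet 1 of 16 did (6.25%), Cyp2d22, against 11% of all genes. HFW and HF mice did not overlap for 2 of 16 genes, Cyp2d10 and Cyp3a59, against 15.7% of all genes. NW and N mice did not overlap for 3, Cyp2d22, Cyp2d10 and Cyp21a1, against 15.5%. The WEPAK effects had the same sign on both diets for 12 of 16 P450 genes (75.0%), 9 positive and 3 negative, and for 75.6% of all genes. Cyp2c44, Cyp2d26, Cyp4a10 and Cyp4f13 had opposite signs. The difference between the diets' effects passed for 0 of 16 P450 genes, with 0 at an unadjusted p under 0.05, against 0% and 2.49% of all genes, and for 0 by the DESeq2 Wald test and by limma-voom. This does not show that the effects were alike, since the standard errors of the 16 differences ran from 0.355 to 0.815 on the log2 scale.

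**Figure D5:**
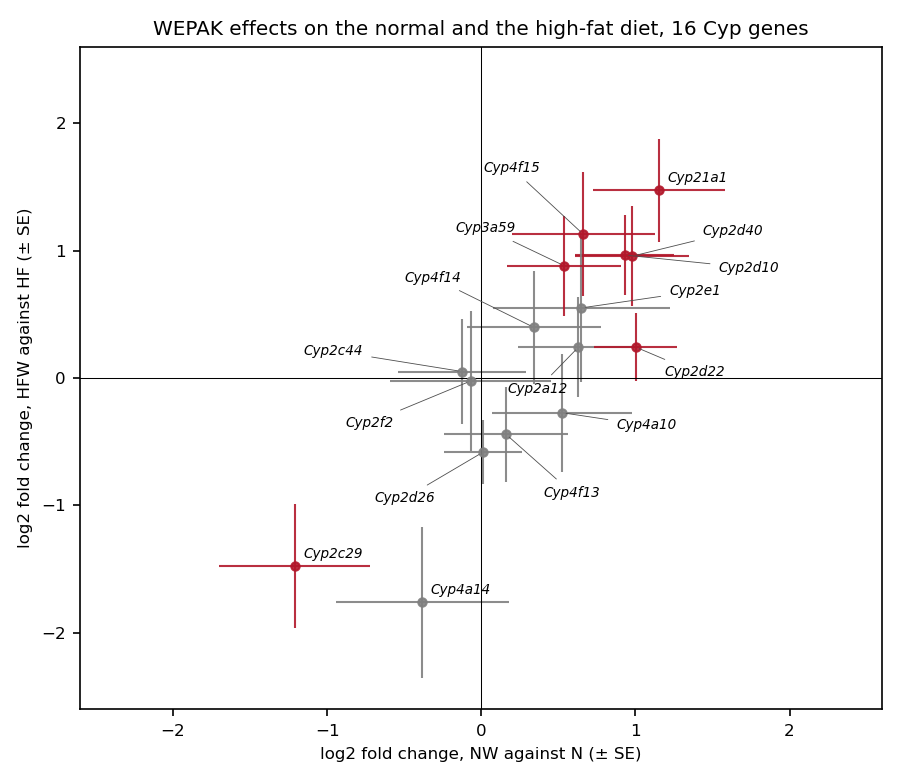
Log2 fold change with WEPAK on the normal diet (horizontal axis, NW against N) and on the high-fat diet (vertical axis, HFW against HF) for 16 P450 genes, with bars of 1 standard error. Red genes passed for the mean of both effects: 6 of them lie at the upper right, above 0 on both axes, and Cyp2c29 lies in the lower left at -1.21 and -1.48.

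The second question was what the high-fat diet changed. Without WEPAK (HF against N) 0 of 16 P450 genes passed, against 0.0956% of all genes, with 1 at an unadjusted p under 0.05 (9.85% of all genes). With WEPAK on both sides (HFW against NW) 0 passed, against 0% of all genes, with 3 at an unadjusted p under 0.05 (12% of all genes). As a mean of both effects 0 passed, against 0.574% of all genes, with 4 at an unadjusted p under 0.05 (20.6% of all genes). The DESeq2 Wald test and limma-voom also called 0 P450 genes in these 3 comparisons. Most values were negative. The mean effect was negative for 14 of 16 genes, with a median of -0.43 against 0.01 for all genes, of which 50.9% were positive. The mean high-fat effect was also negative for 5 of 5 tested hepatocyte markers (median -0.36) and for 5 of 5 tested periportal markers outside the P450 genes (median -0.61), with 0 passing. Of 6 tested pericentral markers outside the P450 genes 2 were negative (median 0.18). Their part in the P450 values was not tested. In HFW against NW the value was negative for 16 of 16 P450 genes (median -0.50, all genes 0.05), with Cyp21a1 at only -0.000186. In HF against N it was negative for 12 of 16 (median -0.30, all genes -0.02). Of all genes, 53.5% were positive in HFW against NW and 48.5% in HF against N. Both single effects were negative for 12 P450 genes and positive for 0, so 75.0% had the same sign, against 66.3% of all genes.

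The 4 genes with an unadjusted p under 0.05 for the mean high-fat effect were Cyp2d40, Cyp3a59, Cyp2e1 and Cyp4f15, whose values in every mouse are given above. Cyp2d40 had -0.77 (SE 0.27, edgeR adjusted p = 0.115) and Cyp3a59 had -0.76 (SE 0.27, edgeR adjusted p = 0.115). Both were lower in 8 of 8 mice on the high-fat diet than the mean of their controls, and both passed without N mouse 4 (-0.86, edgeR adjusted p = 0.0405 for Cyp2d40 and -0.89, edgeR adjusted p = 0.0250 for Cyp3a59). After thinning to equal depth Cyp2d40 had -0.48, edgeR adjusted p = 0.357. Cyp2e1 had -0.93 (SE 0.41, edgeR adjusted p = 0.223) with 7 of 8 mice lower, and Cyp4f15 had -0.70 (SE 0.34, edgeR adjusted p = 0.239) with 8 of 8. Both values rested in part on N mouse 8. Without it Cyp2e1 had -0.57 (edgeR adjusted p = 0.491) with 6 of 8 mice lower, and Cyp4f15 had -0.33 (edgeR adjusted p = 0.686) with 7 of 8. In HF against N, Cyp3a59 had -0.93 (SE 0.39, edgeR adjusted p = 0.455). In HFW against NW, Cyp2d22 was the gene whose groups did not overlap, 1 of 16 against 8.8% of all genes, with -0.71 (SE 0.27, edgeR adjusted p = 0.294). Cyp2d40 had -0.78 (SE 0.37, edgeR adjusted p = 0.390) and Cyp4a14 -1.42 (SE 0.60, edgeR adjusted p = 0.366) in the same comparison, and Cyp4a14 passed without NW mouse 20 (-1.83, edgeR adjusted p = 0.0243) but had -0.90 by limma-voom (adjusted p = 0.651). Cyp2d40 had -0.52 (edgeR adjusted p = 0.653) without HFW mouse 34 and -1.19 (edgeR adjusted p = 0.189) without HFW mouse 40. HF and N mice overlapped for every one of the 16 genes, against 3.06% of all genes that did not overlap. Cyp2d26 and Cyp4f13 were the 2 genes with a positive mean effect, 0.14 and 0.03.

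The 39 members with 1 to 99 tags held 1006 tags and are given by subfamily with no test. Cyp2c genes held the most, 292 tags, and Cyp2d genes (Cyp2d34, Cyp2d9 and Cyp2d12) held 112. Cyp3a11, Cyp3a13 and Cyp3a25 held 94 tags and averaged 67.8 ± 49.8 CPM in HFW, 44.8 ± 14.1 in HF, 96.2 ± 77.5 in NW and 65.0 ± 44.0 in N (SD, n = 4 each). Cyp20a1, an enzyme with no known substrate, had 83 tags, at 98.1 ± 45.0 CPM in HFW, 40.8 ± 21.9 in HF, 72.4 ± 28.9 in NW and 31.8 ± 37.6 in N. Cyp4a32 and Cyp4a12a together had 77 tags, and the arachidonic acid epoxygenases of the Cyp2j subfamily 58. The pooled Cyp4a genes, which leave out Cyp4a14, Cyp4a10 and Cyp4a12b, had 23.2 to 74.5 CPM in HFW mice (16 tags) and 8.19 to 56.3 in HF mice (15 tags). NW mice had 86.9 to 127 CPM (31 tags) and N mice 14.9 to 99.7 (15 tags). HFW and NW mice did not overlap in this pool, as in 8.8% of all tested genes. HF and NW mice did not overlap either, but they differ in both diet and WEPAK, and no share over all genes was computed for them. For the other subfamilies named in these sentences, every pair of groups overlapped.

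Cyp26a1, which degrades retinoic acid, had 57 tags. It had 3, 0, 1 and 9 tags in HFW mice and 2, 1, 1 and 2 in HF mice, against 2, 1, 3 and 17 in NW mice and 0, 5, 6 and 4 in N mice, so NW mouse 20 held most of the NW tags. Cyp46a1, a cholesterol hydroxylase known from neurons, had 55 tags and Cyp4b1 had 53. The Cyp1a genes, known for oxidising aromatic compounds and caffeine, had 32 tags together. Of the sterol and steroid genes Cyp7b1 had 11 tags, Cyp39a1 had 4, Cyp17a1 had 3 and Cyp51 had 1. At 1 to 11 tags over 16 libraries no difference between groups was detectable.

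Of 9 redox partners listed, 3 had enough tags, Por, Cyb5b and Pgrmc1, and 0 of them passed in any comparison, and of 12 genes of haem synthesis and breakdown 3 were tested, Alas1, Urod and Fech, with 0 passing in any comparison. By edgeR the unadjusted p for the mean high-fat effect of Por, the P450 oxidoreductase, was 0.0764 and its log2 fold change -0.53. Of 22 regulators of P450 genes 5 were tested and 2 rose with WEPAK over both diets, against 15.2% of all genes that were higher. Nr1i3, the receptor CAR, averaged 239.7 ± 120.4 CPM in HFW and 128 ± 24.8 in HF, and 207 ± 46.0 in NW and 134 ± 44.4 in N (SD, n = 4 each; log2 fold change 0.76, SE 0.26, edgeR adjusted p = 0.0256). Tef, a transcription factor of the clock output, had 1764 ± 237 CPM in HFW and 1299.9 ± 296 in HF, and 2543 ± 371 in NW and 1589.8 ± 589 in N (0.56, SE 0.19, edgeR adjusted p = 0.0219). On single diets neither gene passed. Nr1i3 had an edgeR adjusted p of 0.0989 in HFW against HF and 0.284 in NW against N. Tef had an edgeR adjusted p of 0.274 in HFW against HF and 0.0851 in NW against N. The alternatives were not compared for these genes. Ahr is counted both among the tested regulators and among the tested pericentral markers. No tag was counted for Nr1i2, the receptor PXR, or for Cux2.

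Markers of other cells and of liver zones were measured beside these results. Of 6 tested pericentral markers that are not P450 genes 0 passed in any comparison, with a median WEPAK effect of 0.20, and of 5 tested periportal markers Pck1 was higher (0.92, edgeR adjusted p = 0.00320) and Arg1 lower (-0.65, edgeR adjusted p = 0.0187) with WEPAK. Of the 5 tested hepatocyte markers Ttr was the 1 past the threshold, and it was higher with WEPAK (0.85, edgeR adjusted p = 0.0141). Stellate cell markers summed to 821 to 4003 CPM in HFW, 400.05 to 3808 in HF, 290.04 to 899 in NW and 498 to 982 in N, with Acta2 at 0, and their 3 tested genes had a median mean high-fat effect of 1.42 with 0 passing. Macrophage markers summed to 437 to 1114 CPM in HFW, 483 to 932 in HF, 461 to 693 in NW and 595 to 831 in N, with Cd68 at 0. Endothelial markers summed to 244 to 384 CPM in HFW, 195 to 238 in HF, 206 to 313 in NW and 208 to 304 in N. Biliary markers stayed below 93.2 CPM in every library, with Krt19 and Krt7 at 0. The part of these cells and of the HF libraries' depth in the P450 values was not tested, and with all libraries thinned to the smallest total the mean WEPAK effect was called for 5 of 12 tested P450 genes (41.7%), against 257 of 783 genes (32.8%).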

How the data were processed

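SuperSAGE libraries were made from the livers of 16 mice. Per the labels' protocols, cDNA primed with biotinylated oligo-dT was cut with NlaIII, bound to beads, cut again with EcoP15I to release a tag, and amplified by PCR. The authors deposited raw tag counts per RefSeq transcript with a gene symbol, each mouse having its own column, per the file headers. The sources used here do not give the method of tag matching or the RefSeq release.

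Of 26782 rows, those without a symbol (416, with 0.0729% of the tags) were left out, and 40 of 41 symbols that had turned into dates were restored from the RefSeq identifier. The counts were then summed per symbol. In R 4.3.3 with edgeR 4.0.16 (TMM scaling, default filter by group with a minimum count of 10, robust quasi-likelihood fit), all 16 libraries were fitted with a mean per group, and 1046 genes were tested. Calls are at an adjusted p under 0.05 over all genes tested. Standard errors are log2 fold changes divided by the square root of F. The steps were tested on simulated data.

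Libraries of the same group differed by more than sampling noise (chi-square divided by its degrees of freedom, 2.24 to 9.64), so each was kept as a replicate. The labels do not say whether mice shared a cage or a preparation day.

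The members and lists were chosen with earlier results of these data known. Values in every mouse are printed for members past the threshold, with an unadjusted p under 0.05, or among the 5 most abundant. Alternatives were DESeq2 1.42.0 (size factors, or its Wald test), limma-voom (limma 3.58.1), no filter, a minimum count of 20, a non-robust fit, thinning to the smallest total, RefSeq rows tested separately, and leaving out mice. Tags were predicted from GENCODE M21 transcripts, and 91 of 92 members matched by RefSeq identifier. Figures were drawn with matplotlib 3.10.9 in Python 3.11.15.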

Additional observations from a re-analysis of the deposited data

Results flagged for a closer look

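In 68 sets of 4 mice (17 single genes in 4 groups), 3 held a mouse far from the other 3 by Dixon's criterion, and chance alone gives about 1 in 20. Cyp4f15 had 282 CPM in N mouse 8, from 17 tags, against 59.5 to 76.3 CPM in the other N mice. Cyp2f2 had 0 CPM in HFW mouse 36, from 0 tags, against 92.8 to 103 CPM in the other HFW mice. Cyp2f2 also had 126 CPM in HF mouse 23, from 12 tags, against 59.3 to 68.8 CPM in the other HF mice.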

How the results depend on the processing

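Only P450 fold changes with an unadjusted edgeR p under 0.05 at the settings of the text were compared. Under the alternatives run, 626 values kept their side of the threshold, 50 lost it and 40 gained it. None changed direction, which says little because they were picked for lying away from 0. In HFW against HF, 2 genes passed at the settings of the text, 1 with DESeq2 size factors, 4 without the robust fit, and 0 to 5 when 1 mouse was left out. In NW against N, 1 passed, with 2 by limma-voom, 2 at a minimum count of 20, 4 after thinning, 0 without N mice 4 and 8, and 0 to 5 when 1 mouse was left out. For the mean WEPAK effect 7 passed, with 3 when no filter was used, 4 without N mice 4 and 8, and 5 to 8 when 1 mouse was left out. Leaving out 1 mouse gave 0 to 1 in HFW against NW and 0 to 2 for the mean high-fat effect. In HF against N and for the difference between diets the number was 0 under every alternative. With no filter, Cyp21a1 (1.23, adjusted p = 0.202) and Cyp2d10 (0.73, adjusted p = 0.521) did not pass in HFW against HF, and for the mean WEPAK effect neither did Cyp2d22, Cyp2d40, Cyp3a59 or Cyp4f15. The cause was not tested. Counts over all genes also moved: in NW against N from 115 to 70 with no filter and to 38 without N mice 4 and 8; in HFW against HF from 103 to 156 without these mice; for the mean high-fat effect from 6 to 17 by the DESeq2 Wald test, 30 with no filter and 55 without these mice; in HF against N from 1 to between 0 and 31 when 1 mouse was left out, with 31 without N 4. Leaving out 1 mouse also gave 31 (N 4) to 178 (N 8) in NW against N, with 47 without NW 15, and 40 to 150 in HFW against HF, with 51 without HF 23, 40 without HF 25, 59 without HFW 38 and 65 without HFW 40. It gave 0 to 107 for the mean high-fat effect, with 107 without N 4, 0 to 3 in HFW against NW, and 263 to 386 for the mean WEPAK effect. With no filter, 65 genes were higher and 189 lower with WEPAK, against 159 and 168 at the settings of the text, 117 and 119 at a minimum count of 20, 127 and 130 after thinning and 104 and 163 without N mice 4 and 8. No paired analysis was possible because the groups share no mouse number. At these depths a count of 0 in 1 library allows a level of up to 20.1 to 53.0 CPM, which limits the 39 low members. Of 36 pooled levels, 0 moved by more than 1 SD when scaled to the raw total.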

Other observations

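Several genes known as prominent P450s of liver were low in these libraries. Cyp1a2, which oxidises caffeine and aromatic amines, had 19 tags in all 16 libraries. Cyp3a11, the usual marker of drug-induced Cyp3a expression in mice, had 46 tags, against 299 for Cyp3a59. Cyp2c37 had 48 tags and Cyp2c54 had 75, with the same predicted tag, and Cyp2b10, the usual marker of CAR activation in mice, had 0. The last NlaIII site lay 71 bases from the end of the transcript in Cyp1a2, 402 in Cyp3a11, 273 in Cyp3a59 and 107 in Cyp2b10, and the predicted tags of Cyp1a2, Cyp3a11 and Cyp2b10 were found in no other gene. Of the 36 members without a tag, 35 matched a reference transcript, and 0 of these lacked an NlaIII site. No Cyp2b10 tag was counted in any group, and a count of 0 in a single library allows up to 20.1 to 53.0 CPM. Nr1i3, which encodes CAR, was higher with WEPAK as a mean over both diets, and CAR activity was not tested.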
